A study of Mus musculus with 12 samples.

Results

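The genes described here are 8 genes of germ cell migration and adhesion, namely Kit, Cxcr4, Itgb1, Itga6, Cdh1, Cdh2, Epcam and Cd9. They are listed by name, and the list was made with earlier results of these data known. All 8 were found by exact symbol among the 22552 rows of the authors' 3 stage tables and the 16394 rows of their Tet1-KO table, and all 8 had a completed test in each table. Messenger RNA was sequenced in mouse primordial germ cells of C57BL/6 embryos, the cells from which eggs and sperm later form. Wild-type cells came from embryonic day 9.5 (E9.5, 2 libraries), E11.5 (2 libraries) and E13.5, where 3 libraries are labelled E13.5m and 3 are labelled WT with no sex given. The Tet1-KO cells were Tet1 -/- cells of E13.5 (2 libraries), also with no sex given. The TET1 enzyme converts 5-methylcytosine of DNA to oxidised forms, and no further treatment or allele is given for any group.

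The authors' tables hold 1 pooled level per group, in FPKM (fragments scaled to transcript length and library size), so library spread cannot be shown and the depth is unknown. Each log2 ratio carries a standard error (SE) derived from the deposited statistic. The labels do not state whether the replicate libraries are separate embryos or litters, and the tests may therefore measure technical spread only. One stage table names a group E13.5f, which no library title carries. Its levels and those of the WT group correlated across 10996 genes (Pearson r of 0.999 in log2(FPKM + 1); genes are not independent replicates), and for the 8 genes the E13.5f level was 0.951 to 1.04 times the WT level. No label states whether the E13.5f and WT columns hold the same libraries, and they are therefore not treated as independent of each other. The 3 stage tables share the E11.5 libraries. The E11.5 and E13.5m libraries were made from 400 to 5000 cells and the WT libraries from 500 to 2000 cells. If the E13.5f group holds the WT libraries, its difference from E11.5 or from E13.5m and the library set cannot be told apart, which covers every call made from E11.5 to E13.5f, that of Itga6 included.

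Germ cells arise outside the gonad and migrate through the hindgut and its mesentery to reach it. KIT is the receptor tyrosine kinase for KIT ligand, which migrating germ cells need to survive and move, and CXCR4 is the receptor for the chemokine CXCL12, which guides them to the gonad. Integrin beta 1 (Itgb1) pairs with alpha subunits such as integrin alpha 6 (Itga6) to hold cells to laminin, while E-cadherin (Cdh1) and N-cadherin (Cdh2) join cells to each other. EPCAM is a cell adhesion molecule of epithelia and stem cells, and CD9 is a tetraspanin, a membrane protein that associates with integrins.

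Germ cell markers were present in every group. All 9 genes of the germ cell list stood above 1 FPKM in each of the 6 columns, with sums of 2472 to 5234 FPKM. Markers of gonadal somatic cells summed to 0.0933 FPKM at E9.5, 2.72 at E11.5, 2.70 at E13.5f, 8.04 at E13.5m and, over the 7 of 9 markers in that table, 7.27 in Tet1-KO, and the mesenchyme markers to between 0.674 and 1.88 FPKM in the stage groups. Over the 3 of 7 mesenchyme markers in the Tet1-KO table the sums were 0.660 FPKM in WT and 0.350 FPKM in Tet1-KO. Blood and macrophage markers summed to 1735 FPKM at E9.5, 23.5 at E11.5, 4.07 at E13.5f and 17.3 at E13.5m. Over 4 of the 9 markers the sums were 3.96 FPKM in WT and 0.639 FPKM in Tet1-KO. Hbb-y, an embryonic globin gene, gave the highest value at E9.5, E11.5 and E13.5m, and Cd68 at E13.5f (2.00 FPKM). Ptprc, the pan-leukocyte marker, was listed at 0 in all 4 stage groups. At E11.5 only Ptprc and Gata1 were at 0, and 4 of the 9 markers exceeded 1 FPKM. Endothelial markers summed to 44.3 to 75.1 FPKM in the stage groups and, over 5 of 7 markers, to 103 FPKM in Tet1-KO. Most of this was Pecam1, which germ cells also express. Tie1 was listed at 0 in all 4 stage groups. Cdh5 did not exceed 0.289 FPKM once the tables were brought to a common scale through their E11.5 columns. Other endothelial markers were detected: 4 of the 7 exceeded 1 FPKM at E11.5 and 2 in each other stage group. Cldn5 stood at 2.99 FPKM at E11.5 and 4.35 FPKM at E13.5f. In pooled cells, fewer cells of a type and less RNA per cell cannot be told apart. Over genes of at least 1 FPKM in both columns, the median log2 ratio was 0.32 from E9.5 to E11.5, 0.19 from E11.5 to E13.5f, 0.02 from E11.5 to E13.5m and -0.38 from WT to Tet1-KO.

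Of the 32 tests of these genes, 2 were called by the authors at an adjusted p of 0.05: Itga6 rose from E11.5 to E13.5f, and Kit fell from E11.5 to E13.5m. From E9.5 to E11.5, 0 of 8 were called by Cuffdiff, the authors' tool, against 5.63 percent of all tested genes (3.71 percent rising and 1.92 percent falling), and 2 had an unadjusted p under 0.05 (Kit and Itga6). From E11.5 to E13.5f, 1 of 8 rose and 0 fell, against 9.34 percent of all tested genes rising and 2.68 percent falling. From E11.5 to E13.5m, 0 rose and 1 of 8 fell, against 2.94 percent rising and 1.94 percent falling. Between WT and Tet1-KO, 0 of 8 were called by Cuffdiff, against 6.16 percent of all tested genes (0.677 percent rising and 5.48 percent falling), and 2 had an unadjusted p under 0.05 (Epcam and Cd9). The median change of the 8 genes in log2(FPKM + 1) was -0.13, 0.45, 0.21 and -0.07 in these comparisons, beside 0.29, 0.22, 0.05 and -0.21 over all tested genes.

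**Figure D1:**
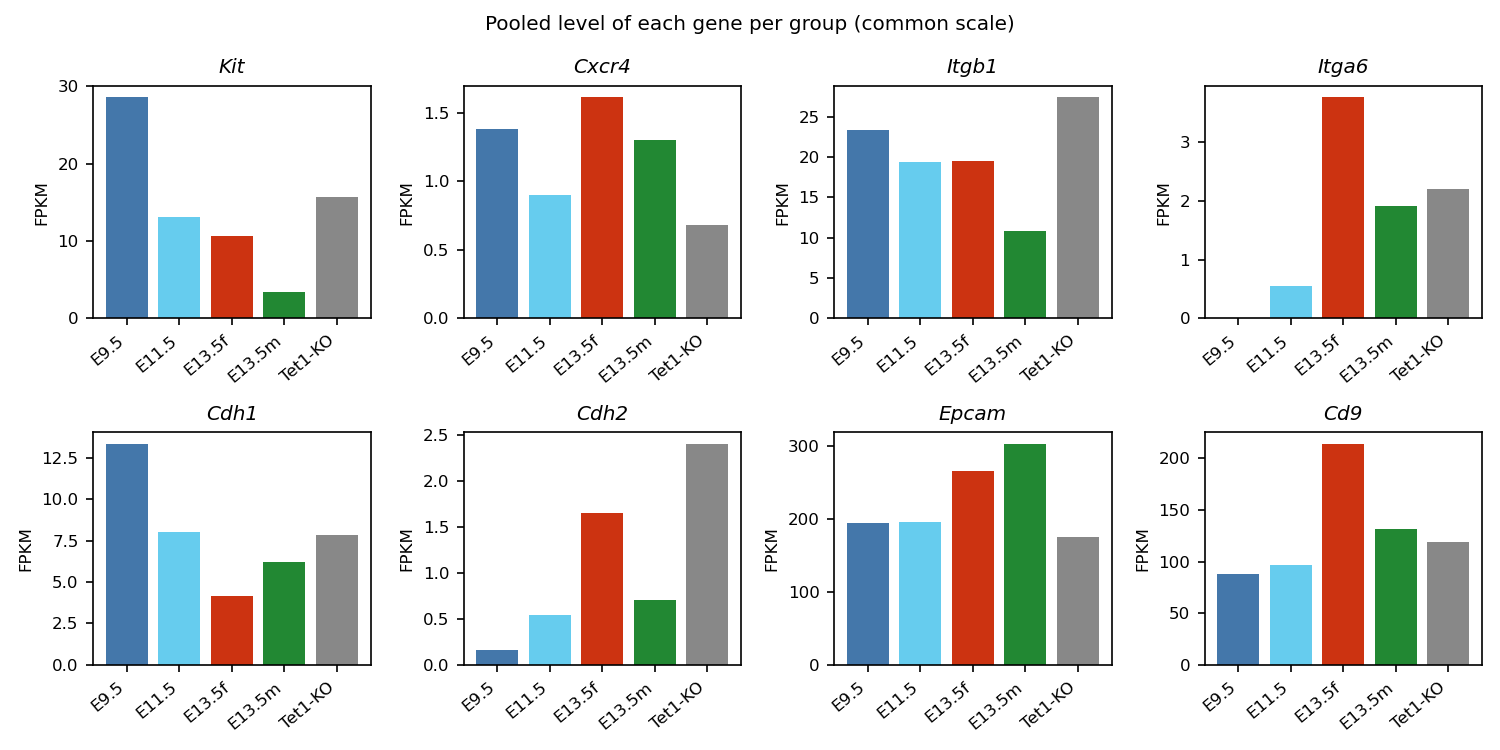
Level of each of the 8 genes in FPKM (vertical axis, from 0, a different range in each panel) in the 5 groups, with the E9.5, E13.5m and Tet1-KO values multiplied by 0.870, 0.976 and 0.962 to reach the scale of the E13.5f table. Each bar is the authors' pooled value and has no error bar, because no value per library was given; Kit is highest at E9.5 and lowest at E13.5m, and Itga6 is listed at 0 at E9.5.

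Levels differed more between the genes than between the stages. Epcam was the most abundant of the 8 in every column, at 182 to 310 FPKM, above 96.1 to 98.3 percent of the genes in each table. Cd9 was the next, at 96.6 to 225 FPKM, above 93.2 to 96.8 percent of genes. Kit, Itgb1 and Cdh1 lay between 3.53 and 32.9 FPKM. Cxcr4, Itga6 and Cdh2 lay between 0 and 3.89 FPKM. The stage tables and the Tet1-KO table hold different sets of genes, so these percentages are not compared between them.

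Promoters of 5 of the 8 genes were found in the RefSeq table of build GRCm38.p6 (Kit, Cxcr4, Itgb1, Epcam and Cd9). Those of Kit, which holds 1 of the 2 calls, and of Epcam and Cd9, the most abundant genes of the set, are printed 5′ to 3′ on the gene's strand over 300 bases around the transcription start, with GC boxes in capitals. A GC box was searched as GGGCGG or, on the other strand, CCGCCC, letters that the transcription factor SP1 can bind.
Kit, chr5:75574737-75575036 (+): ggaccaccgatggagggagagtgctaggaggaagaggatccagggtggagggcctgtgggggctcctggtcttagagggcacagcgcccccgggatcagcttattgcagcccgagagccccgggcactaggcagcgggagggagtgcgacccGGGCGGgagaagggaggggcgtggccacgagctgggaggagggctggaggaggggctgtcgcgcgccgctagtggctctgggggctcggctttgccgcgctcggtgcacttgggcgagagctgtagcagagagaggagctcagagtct
Epcam, chr17:87635729-87636028 (+): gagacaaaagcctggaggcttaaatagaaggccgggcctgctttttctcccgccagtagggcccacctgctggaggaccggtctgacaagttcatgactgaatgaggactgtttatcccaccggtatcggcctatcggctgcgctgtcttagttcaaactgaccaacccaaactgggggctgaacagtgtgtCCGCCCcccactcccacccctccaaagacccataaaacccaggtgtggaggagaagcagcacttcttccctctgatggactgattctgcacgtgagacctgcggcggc
Cd9, chr6:125494711-125495010 (-): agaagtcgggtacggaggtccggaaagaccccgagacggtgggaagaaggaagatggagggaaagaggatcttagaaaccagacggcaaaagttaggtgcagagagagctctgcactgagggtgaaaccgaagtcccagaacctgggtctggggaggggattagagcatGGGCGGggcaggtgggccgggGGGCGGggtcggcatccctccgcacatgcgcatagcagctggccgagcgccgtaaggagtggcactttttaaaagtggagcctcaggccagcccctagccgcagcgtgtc
The Kit window held 1 GC box and 20 CpG dinucleotides, the Epcam window 1 GC box and 11 CpG, and the Cd9 window 2 GC boxes and 18 CpG. At least 1 GC box stood in 35.9 percent of 27025 promoters of the same length, whose median was 7 CpG. CpG is the dinucleotide whose cytosine is methylated in mouse DNA and on which TET1 acts. Fewer CpG than in the Kit window were found in 73.2 percent of promoters, fewer than in the Cd9 window in 69.9 percent and fewer than in the Epcam window in 58.1 percent. No methylation was measured in these libraries, and a match is a description of the letters only.

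Kit (chromosome 5, 75971012 to 76052746, build mm9, as all gene positions here) fell from E11.5 to E13.5m. Its level was 32.9 FPKM at E9.5 and 15.1 FPKM at E11.5 in the first table, a log2 ratio of -1.13 ± 0.56 (SE) with an adjusted p of 0.239 in the authors' deposited table. It was 13.4 FPKM at E11.5 and 3.53 FPKM at E13.5m, a log2 ratio of -1.93 ± 0.61 (SE), 3.80-fold lower, with an adjusted p of 0.0359 in the authors' deposited table. Towards E13.5f the levels were 13.1 and 10.6 FPKM, with a log2 ratio of -0.31 ± 0.56 (SE) and an adjusted p of 0.779 in the authors' deposited table. On the common scale the order from high to low was E9.5, Tet1-KO, E11.5, E13.5f and E13.5m, with 28.6, 15.7, 13.1, 10.6 and 3.45 FPKM, and the step from E11.5 to E13.5m was the only one of the 4 tested that was called. The call was lost at a threshold of 0.01. Relative to the table median the Kit log2 ratio was -1.44 from E9.5 to E11.5, -0.50 to E13.5f and -1.95 to E13.5m.

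Cxcr4 (chromosome 1, 130484776 to 130488876) was low in every group and was called in no comparison. The levels were 1.58 FPKM at E9.5 and 1.04 FPKM at E11.5, a log2 ratio of -0.61 with a 95 percent interval of -2.98 to 1.76. Towards E13.5f they were 0.902 and 1.61 FPKM, with a log2 ratio of 0.84 ± 0.92 (SE), and towards E13.5m 0.924 and 1.33 FPKM, with 0.53 ± 1.08 (SE). Their 95 percent intervals were -0.96 to 2.64 and -1.60 to 2.65, and no difference was detectable at this precision.

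Itgb1 (chromosome 8, 131209554 to 131257479) was called in no comparison. It was 26.9 FPKM at E9.5 and 22.2 FPKM at E11.5, and 19.3 FPKM at E11.5 and 19.5 FPKM at E13.5f in their own table. The log2 ratio to E13.5f was 0.01, with a 95 percent interval of -0.98 to 1.01. At E13.5m it was 11.1 FPKM, beside 19.8 FPKM at E11.5, a log2 ratio of -0.83 ± 0.52 (SE) with an adjusted p of 0.420 in the authors' deposited table.

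Itga6 (chromosome 2, 71625140 to 71694815), which encodes a laminin-binding partner of integrin beta 1, rose from E11.5 to E13.5f. It was listed at 0 at E9.5, as were 565 tested genes in all, and at 0.629 FPKM at E11.5 in that table, with an unadjusted p of 0.0186 and an adjusted p of 0.155 in the authors' deposited table. At E11.5 it was 0.547 FPKM and at E13.5f 3.77 FPKM, with a log2 ratio of 2.78 ± 0.84 (SE), 6.89-fold higher, with an adjusted p of 0.0137 in the authors' deposited table. At E13.5m it stood at 1.95 FPKM beside 0.561 FPKM at E11.5, a log2 ratio of 1.80 ± 0.91 (SE) with an adjusted p of 0.287 in the authors' deposited table. The E13.5 groups were thus both above E11.5 in their pooled value, and the step to E13.5f was called. This call too was lost at a threshold of 0.01. Relative to the table median the log2 ratio to E13.5f was 2.59. The ratio of Itgb1 to Itga6 in FPKM was 35.3 at E11.5, 5.17 at E13.5f, 5.70 at E13.5m, 5.21 in WT and 12.5 in Tet1-KO. These ratios rest on Itga6 levels of 0.547 to 3.89 FPKM and carry no error of their own.

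Cdh1 (chromosome 8, 109127268 to 109194146), the E-cadherin gene, and Cdh2, the N-cadherin gene on chromosome 18, were called in no comparison. Cdh1 was 15.4 FPKM at E9.5 and 9.19 FPKM at E11.5, a log2 ratio of -0.74 ± 0.56 (SE). At E13.5f it was 4.19 FPKM, 1.91-fold lower than at E11.5 in the same table, with a log2 ratio of -0.93 ± 0.58 (SE) with an adjusted p of 0.299 in the authors' deposited table. At E13.5m it was 6.38 FPKM, beside 8.19 FPKM at E11.5. The pooled level was thus lower at each later stage than at E9.5, with no step past the test.

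Cdh2 was 0.189 FPKM at E9.5 and 0.622 FPKM at E11.5, a log2 ratio of 1.72 with a 95 percent interval of -1.23 to 4.68. It was 0.541 FPKM at E11.5 and 1.65 FPKM at E13.5f, a log2 ratio of 1.61 ± 0.82 (SE), with an unadjusted p of 0.0485 and an adjusted p of 0.186 in the authors' deposited table. At E13.5m it was 0.717 FPKM beside 0.555 FPKM at E11.5. Within each group Cdh1 exceeded Cdh2: the ratio of their FPKM was 81.4 at E9.5, 14.8 at E11.5, 8.91 at E13.5m, 2.54 at E13.5f, 2.75 in WT and 3.25 in Tet1-KO. These ratios rest on Cdh2 levels of at most 2.50 FPKM and carry no error of their own. Cdh2 is also made by mesenchyme and gonadal somatic cells, and the sum of the gonadal soma markers was 0.0933 FPKM at E9.5, 2.72 FPKM at E11.5, 2.70 FPKM at E13.5f and 8.04 FPKM at E13.5m. Over 7 of the 9 markers this sum was 2.58 FPKM in WT and 7.27 FPKM in Tet1-KO, beside Cdh2 levels of 1.58 and 2.50 FPKM. The mesenchyme markers summed to 1.35 FPKM at E9.5, 1.88 at E11.5, 0.713 at E13.5f and 0.674 at E13.5m. Over 3 of the 7 mesenchyme markers the sums were 0.660 FPKM in WT and 0.350 FPKM in Tet1-KO. The part of these cell types in the Cdh2 values was not tested.

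**Figure D2:**
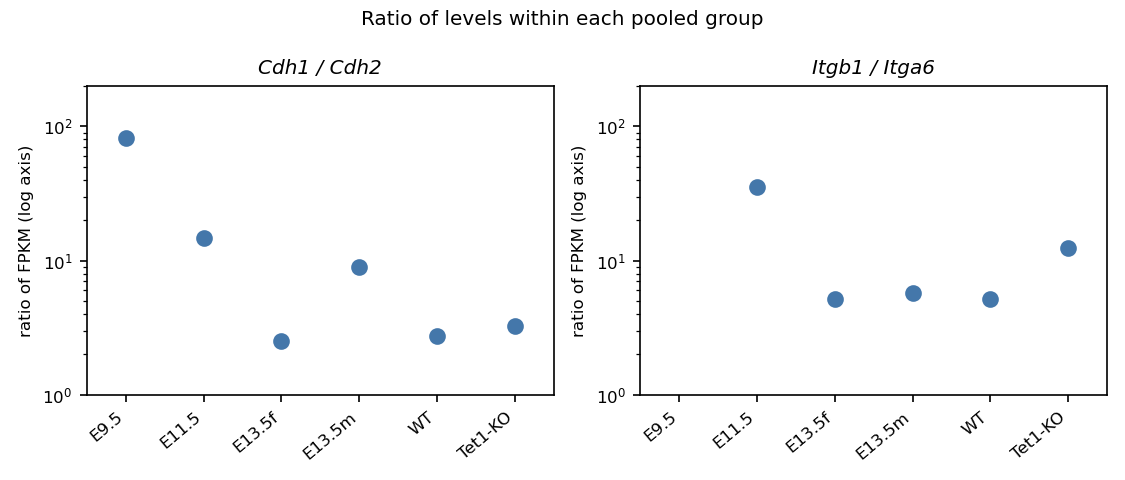
Ratio of FPKM between Cdh1 and Cdh2 (left) and between Itgb1 and Itga6 (right) in each pooled group, on log axes; each point is 1 ratio of 2 pooled values without an error. The left ratio is highest at E9.5 (81.4) and lowest at E13.5f (2.54); the right one has no point at E9.5, where Itga6 is listed at 0.

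Epcam (chromosome 17, 88035319 to 88050467) was high in every group and was called in no comparison. It was 223 FPKM at E9.5 and 225 FPKM at E11.5, a log2 ratio of 0.01 with a 95 percent interval of -0.90 to 0.92. Towards E13.5f it was 196 and 266 FPKM, a log2 ratio of 0.44 ± 0.43 (SE), and towards E13.5m 201 and 310 FPKM, a log2 ratio of 0.63 ± 0.44 (SE). Neither step was called, and over the 5 groups the highest level on the common scale was 1.73 times the lowest. Krt18, a keratin of simple epithelia, stood at 37.1 FPKM at E9.5, 20.1 FPKM at E11.5, 68.6 FPKM at E13.5f and 21.2 FPKM at E13.5m on the common scale. Before scaling, the keratin gene Krt8 stood at 11.7, 1.84, 5.70 and 6.48 FPKM in these groups, and Krt19 at 0, 0.196, 0.907 and 4.08 FPKM. In WT and Tet1-KO, Krt18 stood at 71.7 and 56.2 FPKM, Krt8 at 5.82 and 5.69 FPKM and Krt19 at 0.873 and 0 FPKM. The part of these keratin markers in the Epcam levels was not tested.

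Cd9 (chromosome 6, 125410284 to 125444773) was 101 FPKM at E9.5 and 111 FPKM at E11.5, a log2 ratio of 0.14 ± 0.51 (SE). It was 96.6 FPKM at E11.5 and 214 FPKM at E13.5f, 2.22-fold higher, a log2 ratio of 1.15 ± 0.46 (SE). This had an unadjusted p of 0.0132 and an adjusted p of 0.0836 in the authors' deposited table, and so was not called. At E13.5m it was 135 FPKM beside 99.0 FPKM at E11.5, a log2 ratio of 0.45 ± 0.48 (SE).

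**Figure D3:**
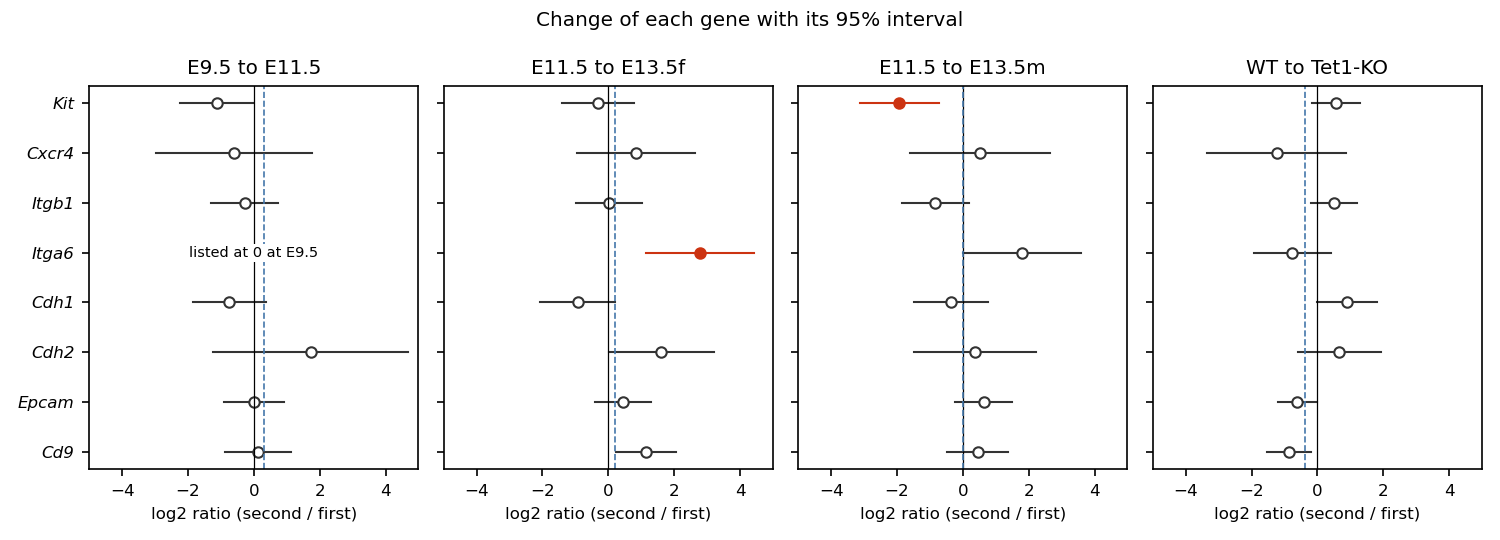
Log2 ratio of the second group over the first (horizontal axis) for each gene in the 4 comparisons, with 95 percent intervals from the deposited statistics; filled red points were called by the authors, and the dashed blue line is the median log2 ratio of the table. The red points are Itga6 at 2.78 from E11.5 to E13.5f and Kit at -1.93 from E11.5 to E13.5m; all other intervals belong to tests that were not called.

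The E13.5m and E13.5f groups have no table of their own, and their log2 ratios from E11.5 were compared by subtraction over 11314 genes. This normal two-sided test counts the shared E11.5 error in both ratios, which makes its errors too large. With Benjamini-Hochberg adjustment 0 of the 8 genes passed, against 0.150 percent of all genes, and 1, Kit, had an unadjusted p under 0.05. Kit was lower in E13.5m by a log2 difference of -1.62 ± 0.83 (SE), at 3.45 against 10.6 FPKM on the common scale, with an unadjusted p of 0.0495 that did not hold after adjustment. Once both tables were centred on their medians, the unadjusted p of Kit was 0.0791. The call of Kit at E13.5m and not at E13.5f, and that of Itga6 at E13.5f and not at E13.5m, are thus not shown to be differences between the groups. For Itga6 the difference was -0.98 with a 95 percent interval of -3.41 to 1.45. The other differences lay between -1.24 for Cdh2 and 0.57 for Cdh1.

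In the knockout, Tet1 itself stood at 6.36 FPKM in WT and 0.218 FPKM in the knockout (log2 ratio -4.87 ± 0.67, SE). None of the 8 genes was called by Cuffdiff. Cd9 had the smallest p of the 8: it was 225 FPKM in WT and 124 FPKM in the knockout, and its log2 ratio was -0.86 ± 0.34 (SE), with an unadjusted p of 0.0113 and an adjusted p of 0.104 in the authors' deposited table. Epcam was 279 and 182 FPKM, a log2 ratio of -0.61 ± 0.30 (SE), with an unadjusted p of 0.0427 and an adjusted p of 0.214 in the authors' deposited table. The median log2 ratio of the table was -0.38, and relative to it these log2 ratios were -0.48 and -0.23.

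The pooled levels of 4 of the 8 genes were higher in Tet1-KO and those of 4 were lower. Cdh1 was 4.35 FPKM in WT and 8.13 FPKM in the knockout, and its log2 ratio was 0.90 with a 95 percent interval of -0.01 to 1.81 and an adjusted p of 0.240 in the authors' deposited table. Kit was 11.0 and 16.3 FPKM, Itgb1 20.3 and 28.5 FPKM and Cdh2 1.58 and 2.50 FPKM, with log2 ratios of 0.57 ± 0.37, 0.49 ± 0.36 and 0.66 ± 0.64 (SE). Itga6 was 3.89 and 2.29 FPKM and Cxcr4 1.67 and 0.706 FPKM, with log2 ratios of -0.77 ± 0.60 and -1.24 ± 1.07 (SE). Relative to the table median the Cdh1 log2 ratio was 1.28, that of Cdh2 1.04, that of Kit 0.94 and that of Itgb1 0.87. With the table centred in this way 0 of the 8 genes passed, against 3.61 percent of all genes. The sum of the 7 gonadal soma markers in this table was 2.58 FPKM in WT and 7.27 FPKM in Tet1-KO, with 0 markers at 0 in either group; its part in these values was not tested.

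Around these genes, 114 other genes of adhesion and migration were followed in 8 lists. The median change in log2(FPKM + 1) of those tested was -0.09, 0.09, -0.12 and -0.08 in the 4 comparisons. Over all tested genes it was 0.29, 0.22, 0.05 and -0.21, as given above. From E9.5 to E11.5, 3 of 81 tested genes rose and 3 fell, 7.41 percent in all against 5.63 percent of all tested genes. Cxcl12, the ligand of CXCR4, fell from 11.6 to 1.26 FPKM, with a log2 ratio of -3.19 ± 0.78 (SE). Ptpn6, the phosphatase SHP-1 that acts on KIT signalling, rose from 110 to 203 FPKM. Among the other integrin subunits 1 of 10 rose, Itgb7, from 1.22 to 11.1 FPKM, and among the integrin adaptors 1 of 16 rose, the integrin-linked kinase gene Ilk, from 34.7 to 71.0 FPKM. The cadherin Cdh13 fell from 3.52 to 0.0151 FPKM, 1 of 4 tested cadherins. Cldn7, a claudin that binds EPCAM, fell from 198 to 60.3 FPKM. Of 18 tetraspanins and CD9 partners, 5 epithelial to mesenchymal regulators and 4 catenins 0 were called by Cuffdiff, with 2, 0 and 1 at an unadjusted p under 0.05. With the table centred on its median 0 rose and 4 fell, against 4.66 percent of all genes called by the centred test. Spint1, at 2.59 and 0.206 FPKM and named here after its values were seen, was added, and the calls of Ptpn6, Itgb7 and Ilk were lost. Relative to the median the log2 ratio of Itgb7 was 2.87, with an adjusted p of 0.0630 by the centred test, and those of Ptpn6 and Ilk were 0.57 and 0.72. Blood, hindgut and epithelium markers were also lower at E11.5 than at E9.5. Hindgut markers summed to 23.1 FPKM at E9.5 and 6.18 FPKM at E11.5, and epithelium markers to 60.8 and 27.6 FPKM. The part of these markers in the falls of Cxcl12, Cdh13, Cldn7 and Spint1 was not tested.

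From E11.5 to E13.5f, 11 of 79 tested genes rose and 3 fell, 17.7 percent against 12.0 percent of all tested genes. Among 18 tested tetraspanins and CD9 partners, 3 rose and 1 fell. Cd63 rose from 1.76 to 11.3 FPKM, Cd82 from 3.12 to 12.5 FPKM and Tspan4 from 25.9 to 95.3 FPKM, while Tspan6 fell from 26.1 to 7.76 FPKM. Among the other cadherins 3 of 5 rose and 1 fell: Cdh15, M-cadherin, rose from 0.0724 to 3.84 FPKM, Cdh6 and Cdh13 rose to 0.824 and 0.933 FPKM from under 0.02 FPKM, and Cdh3, P-cadherin, fell from 33.4 to 13.8 FPKM. The integrin adaptor genes Parva and Parvb, which encode parvins, rose from 0.447 to 4.91 FPKM and from 0.602 to 2.80 FPKM, and the actinin gene Actn4 fell from 150 to 60.2 FPKM. The integrin subunit gene Itgb5 rose from 2.47 to 11.4 FPKM. Of the EPCAM relatives 2 of 7 rose: Spint1, a membrane protease inhibitor, from 0.179 to 18.3 FPKM with a log2 ratio of 6.68 ± 1.12 (SE), and Cldn6 from 4.51 to 24.9 FPKM. Of 13 tested genes of KIT and CXCR4 signalling, 5 catenins and 6 epithelial to mesenchymal regulators, 0 were called by Cuffdiff, with 1 of each at an unadjusted p under 0.05. With the table centred on its median 9 genes rose and 6 fell, against 10.8 percent of all genes called by the centred test. The calls of Parvb and Cdh6 were lost at log2 ratios of 2.03 and 5.47 relative to the median, with adjusted p of 0.0762 and 0.0619 by the centred test. The falls of Itgb7, Tln1 and Cldn7, named after their values were seen, were added, with log2 ratios of -1.94, -1.59 and -1.07. Epithelium markers summed to 27.6 FPKM at E11.5 and 77.1 FPKM at E13.5f, mostly Krt18, and hindgut markers to 6.18 and 15.9 FPKM, with Cdh16 listed at 0 in both groups and Foxa1 and Shh at 0 at E11.5. The part of these markers in the rises, those of Spint1 and Cldn6 included, was not tested.

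**Figure D4:**
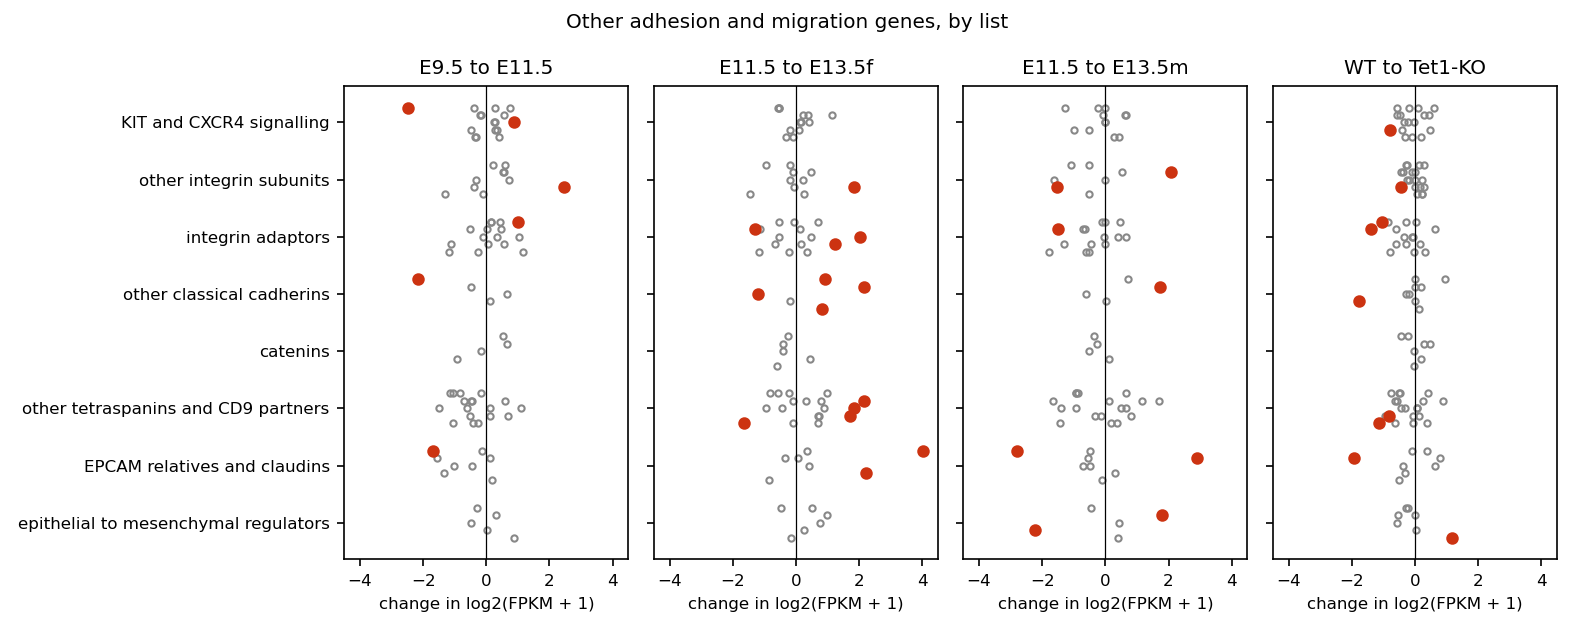
Change in log2(FPKM + 1) (horizontal axis) of each tested gene of the 8 lists (rows) in the 4 comparisons; filled red points were called by the authors and open grey points were not, and the vertical offset within a row only separates points. The rightmost red point is Spint1, which rose from 0.179 to 18.3 FPKM between E11.5 and E13.5f.

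From E11.5 to E13.5m, 4 of 74 tested genes rose and 4 fell, 10.8 percent against 4.88 percent of all tested genes. Itgb5 rose from 2.53 to 13.8 FPKM, and the alpha V integrin gene Itgav fell from 2.96 to 0.383 FPKM. Tln1, the gene of talin, which links integrins to actin, fell from 6.77 to 1.74 FPKM. Cldn7 fell from 53.7 to 6.84 FPKM, with a log2 ratio of -2.97 ± 0.47 (SE), and Spint1 rose from 0.183 to 7.83 FPKM. Vim, the intermediate filament gene vimentin, fell from 99.2 to 20.5 FPKM, while Snai1, a repressor of Cdh1, rose from 0.215 to 3.25 FPKM. Cdh15, M-cadherin, rose from 0.0742 to 2.54 FPKM. Gonadal soma markers summed to 2.72 FPKM at E11.5 and 8.04 FPKM at E13.5m, mesenchyme markers to 1.88 and 0.674 FPKM. Epithelium markers summed to 27.6 and 32.2 FPKM. The part of these markers in the rises and falls from E11.5 to E13.5m was not tested. Of 18 tested tetraspanins and CD9 partners, 12 genes of KIT and CXCR4 signalling and 4 catenins 0 were called by Cuffdiff, with 5, 3 and 0 at an unadjusted p under 0.05.

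Between WT and Tet1-KO, 1 of 103 tested genes rose and 8 fell, 8.74 percent against 6.16 percent of all tested genes. Vim rose from 91.7 to 207 FPKM, with a log2 ratio of 1.18 ± 0.31 (SE). Spint1 fell from 19.1 to 4.30 FPKM, with a log2 ratio of -2.15 ± 0.54 (SE). The integrin adaptor genes Ilk and Pxn, which encodes paxillin, fell from 132 to 63.9 FPKM and from 2.66 to 0.383 FPKM. Ptpn6 fell from 171 to 98.1 FPKM, Tspan4 from 99.4 to 45.0 FPKM and Cdh15 from 3.97 to 0.465 FPKM. Tspan8 and Itga2b fell from 0.795 and 0.367 FPKM to under 0.03 FPKM. Of 7 catenins 0 were called by Cuffdiff, with 1 at an unadjusted p under 0.05. With the table centred on its median 3 genes rose and 1 fell, against 3.61 percent of all genes called by the centred test. Vim rose and Spint1 fell, Actn4 and Cdh3, named after their values were seen, rose, and the other 7 falls were not called. Of those 7, Pxn, Cdh15, Itga2b and Tspan8 had log2 ratios of -2.42, -2.72, -4.30 and -4.63 relative to the median, with adjusted p of 0.0761, 0.0652, 0.0766 and 0.0957 by the centred test. Ptpn6, Ilk and Tspan4 stood at -0.42, -0.66 and -0.77. Vim is also a gene of mesenchyme and other somatic cells; the gonadal soma sum given above was higher in Tet1-KO and the mesenchyme sum lower, and their part in the Vim rise was not tested.

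Genes with a profile most like each of the 8 were ranked by the root mean square difference of log2(FPKM + 1), centred per gene, over 5 groups (E9.5, E11.5, E13.5f, E13.5m and Tet1-KO). Kit was closest to Tcfap2c (0.17), which encodes the germ cell transcription factor AP-2 gamma, followed by Cd24a and Tead2 (0.19 and 0.20). On the common scale Tcfap2c stood at 307 FPKM at E9.5, 185 at E11.5, 115 at E13.5f, 47.2 at E13.5m and 217 in Tet1-KO. Cdh1 was closest to Mta2 (0.03), Mycl1 (0.08) and Chmp4b (0.09), and Cd9 to Chst12 (0.04), Ehmt1 and Cyb561d2 (both 0.06). Itgb1 was closest to B4galt6 (0.10), Rlim (0.11) and Elovl5 (0.12), and Itga6 to Slc25a20 (0.09), Klhl15 (0.10) and Camk1 (0.11). Epcam was closest to Nat15, Itfg2 (both 0.05) and Srrm2 (0.06), Cdh2 to Fam108b (0.08), Coq10a (0.12) and Dis3l (0.13), and Cxcr4 to Arfrp1 (0.02), Pkig and Pih1d1 (both 0.05). Among the 8 themselves the closest pair was Cxcr4 and Epcam (0.22), then Epcam and Cd9 (0.35). This likeness is a description over 5 pooled values, and the pseudocount of 1 flattens the profile of low genes such as Cxcr4.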

How the data were processed

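Amplified cDNA (2 to 70 ng) of 12 libraries was sequenced, per the labels' protocols. Cufflinks and Cuffdiff (both 1.2.1 for the stage libraries and 1.0.3 for the WT and Tet1-KO libraries), TopHat 1.3.1, Bowtie and the build mm9 are named in the submitters' processing notes. The authors deposited FPKM pooled over the libraries of a group, per the file headers. The p-values, adjusted p-values and test statistics in the tables are the authors' own and were deposited as such; 2182 FDR values of the Tet1-KO table exceed 1. Depth is unknown, so no counting interval was computed.

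Log2 ratios were computed again from FPKM, with an SE equal to the ratio over the deposited statistic, or over the normal deviate of the p-value (above 0.05) in the Tet1-KO table. Start positions were moved by 1 base to count from 1. The E11.5 columns set the common scale, and the WT column that of Tet1-KO. The 8 genes and all lists were chosen with earlier results of these data known; 1 further list is not reported here. Symbols were matched exactly, with Ackr3 and Tfap2c under the tables' names. In each list all called genes were to be named, or the 4 largest changes in log2(FPKM + 1) where more than 4 were called, with 3 like genes per member at a mean of 5 FPKM or more. The tests were tested on simulated data. Other settings tried were a pseudocount of 0.1, centring, minima of 1 FPKM or of a log2 ratio of 1, a repeated adjustment and a threshold of 0.01. The work used scipy 1.17.1, pandas 2.3.3, numpy 2.4.6, matplotlib 3.10.9 and Python 3.11.15.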

Additional observations from a re-analysis of the deposited data

How the results depend on the processing

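At a threshold of 0.01 the number of the 8 genes called became 0 from E11.5 to E13.5f (without Itga6) and 0 from E11.5 to E13.5m (without Kit), and that of the 114 other genes 8, 4 and 2 from E11.5 to E13.5f, from E11.5 to E13.5m and from WT to Tet1-KO. The share called over all tested genes also fell in these 3 comparisons, to 5.62, 2.40 and 2.26 percent. With centring on the table median 4 of the other genes were called in the Tet1-KO table, against 3.61 percent of all genes. Of the 4, Spint1 and Vim were among the 9 called without centring, and Actn4 and Cdh3 were not. Centring also changed the sign of 3 log2 ratios that were not called: Epcam to -0.31 and Cd9 to -0.18 from E9.5 to E11.5, and Itgb1 to -0.18 from E11.5 to E13.5f. The other 28 log2 ratios of the 8 genes kept their direction when centred, and all 32 changes kept it with a pseudocount of 0.1. With that pseudocount 9 of the 24 genes of like profile remained. Repeated adjustment and minima of 1 FPKM or of a log2 ratio of 1 left each total count of calls within 1.5 times its value. With the minimum of 1 FPKM, 9 of the other genes rose and 4 fell from E11.5 to E13.5f, in place of 11 and 3. The share over all genes at that minimum was 14.0 percent. Cdh6 and Cdh13, under 1 FPKM in both groups, were lost, and the fall of Itgb7 was added. In Tet1-KO 2 rose (Vim and Cdh3) and 6 fell, in place of 1 and 8, without Itga2b and Tspan8, against 10.4 percent of all genes at that minimum.

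Leaving out each replicate was not run, since the tables hold 1 pooled value per group. No paired analysis was possible because the columns are pooled over replicates. The precision of low genes such as Cxcr4, Itga6 and Cdh2 is limited by the unknown depth behind 1 to 4 FPKM or less.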
